A study of Mus musculus with 6 samples.

Results

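The control uterine luminal layer was compared with control blastocysts from the same stage of pregnancy, so that transcripts on both sides of the implantation interface stood on a common scale. The members were the 2 libraries labelled control of the 6 in the series, and 15597 of 23420 genes had 10 or more counts summed over these 2 libraries. All libraries came from mice dissected at 8 pm on day 4 of pregnancy. The luminal control was a *Lif*-floxed/floxed female group given PBS. The *Lif* eKO group was *Lif*-floxed/floxed *Ltf*-Cre/+ given PBS, and the third group was the same genotype given recombinant Lif (rLif) intraperitoneally, 20 µg per head, at 10 am and 6 pm, which was 2 h before dissection. The *Ltf*-Cre driver deletes in the uterine epithelium. Blastocysts are labelled by the treatment of the mother and were *Lif*-floxed/+ in all 3 groups, so every animal and embryo carried the floxed allele. Each group was 1 pooled library. The luminal layer was cut by laser microdissection from a frozen, unflushed horn, and blastocysts were flushed with PBS. Tissue and collection method therefore cannot be told apart, and fewer cells of a type cannot be told apart from less RNA per cell in these bulk samples.

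On day 4 of mouse pregnancy the blastocyst lies free in the uterine lumen and its outer cells, the trophectoderm, come to face the luminal epithelium, which is receptive for a short window set by ovarian progesterone and estrogen. The trophectoderm surrounds the inner cell mass, whose cells divide into the epiblast and the primitive endoderm. Implantation needs secreted signals and contact molecules on both sides. The best known is Lif, a cytokine made mainly by uterine glands that acts on the luminal epithelium through its receptor Lifr and the shared subunit Il6st (gp130) to activate Stat3.

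Total counts ran from 23850565 to 28460465 in the luminal libraries and from 18996158 to 19638852 in the blastocyst libraries. *Lif*, the targeted gene, did not bear out the luminal labels and could not check them. It had 0, 28 and 0 counts in the luminal libraries labelled control, *Lif* eKO and rLif-treated *Lif* eKO. The gland marker *Foxa2* was also near 0 there, so these counts do not test the deletion. Therefore "control" below means the library labelled control, and no direction is drawn from the luminal genotype. Genes of the Y chromosome gave a check of tissue: the 5 tested of 6 listed, such as *Ddx3y*, were at 0 counts in all 3 luminal libraries, and all 5 were called higher in the blastocyst. Over the whole Y chromosome the luminal libraries held 125, 103 and 182 counts, against 2047, 2273 and 2177 in the blastocysts. Of the 8 tested Y genes, 6 were called higher in the blastocyst and 0 in the luminal layer. The haemoglobin genes listed (*Hba-a1*, *Hba-a2*, *Hbb-b1* and *Hbb-b2*) were at 0 in all 6 libraries, and *Gapdh*, an abundant glycolytic enzyme, was at 16.3, 8.81 and 43.1 RPKM in the luminal libraries. Genes with near-identical copies are thus uncertain here.

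Levels are given as RPKM, counts scaled to the exon length and to the summed counts of the library, computed here from the deposited counts and exon lengths. Unless another order is stated, 3 values of a tissue stand in the order control, *Lif* eKO and rLif-treated *Lif* eKO, by label. A gene was called by size when the whole 95% Clopper-Pearson interval of its luminal over blastocyst ratio in the control pair lay beyond 4-fold. That interval covers counting error only, and the call compares 2 libraries, since each group had no replicate.

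By this rule 2675 genes were higher in the luminal layer (17.2% of those tested) and 2371 were higher in the blastocyst (15.2%), leaving 10551 not called. When lengths were also used to scale the libraries (TPM), the split was 2146 and 3155. The genes higher in the luminal layer held 34.0% of that library's counts, and those higher in the blastocyst held 27.7% of the blastocyst counts. Of the called genes, 624 and 582 had 0 counts in the other control library, and 321 and 329 had 0 counts in all 3 libraries of the other tissue. By the presence limit used here, 1 RPKM and 10 counts, 9484 genes were present in both control libraries, 2103 in the luminal library alone and 1388 in the blastocyst library alone.

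The *Lif* eKO pair and the rLif-treated pair share no library with the control pair. In the eKO pair, 2859 genes were called higher in the luminal layer (18.3%) and 2778 in the blastocyst (17.8%). The rLif pair gave 2799 (17.9%) and 2775 (17.8%). Of the luminal calls of the control pair, 75.6% were called again in the eKO pair, which was 70.7% of that pair's calls. In the rLif pair 80.3% were called again (76.8% of that pair's calls). Blastocyst calls recurred at 82.3% and 86.0% (70.3% and 73.5% of the other pairs' calls). Some 1793 genes were higher in the luminal layer, and 1810 in the blastocyst, in all 3 pairs.

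edgeR's quasi-likelihood test set the 3 luminal libraries against the 3 blastocyst libraries, with the 3 conditions of a tissue standing in for replicates, so its p-values count differences between conditions as spread. It called 4978 genes higher in the luminal layer (31.9%) and 4486 higher in the blastocyst (28.8%) at a Benjamini-Hochberg adjusted p below 0.05 and an absolute log2 fold change above 1. The same direction was found for 95.9% of the luminal and 95.4% of the blastocyst calls by size, and the opposite direction for 0. Both rules used the control pair, so the second is not independent of the first.

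**Figure D1:**
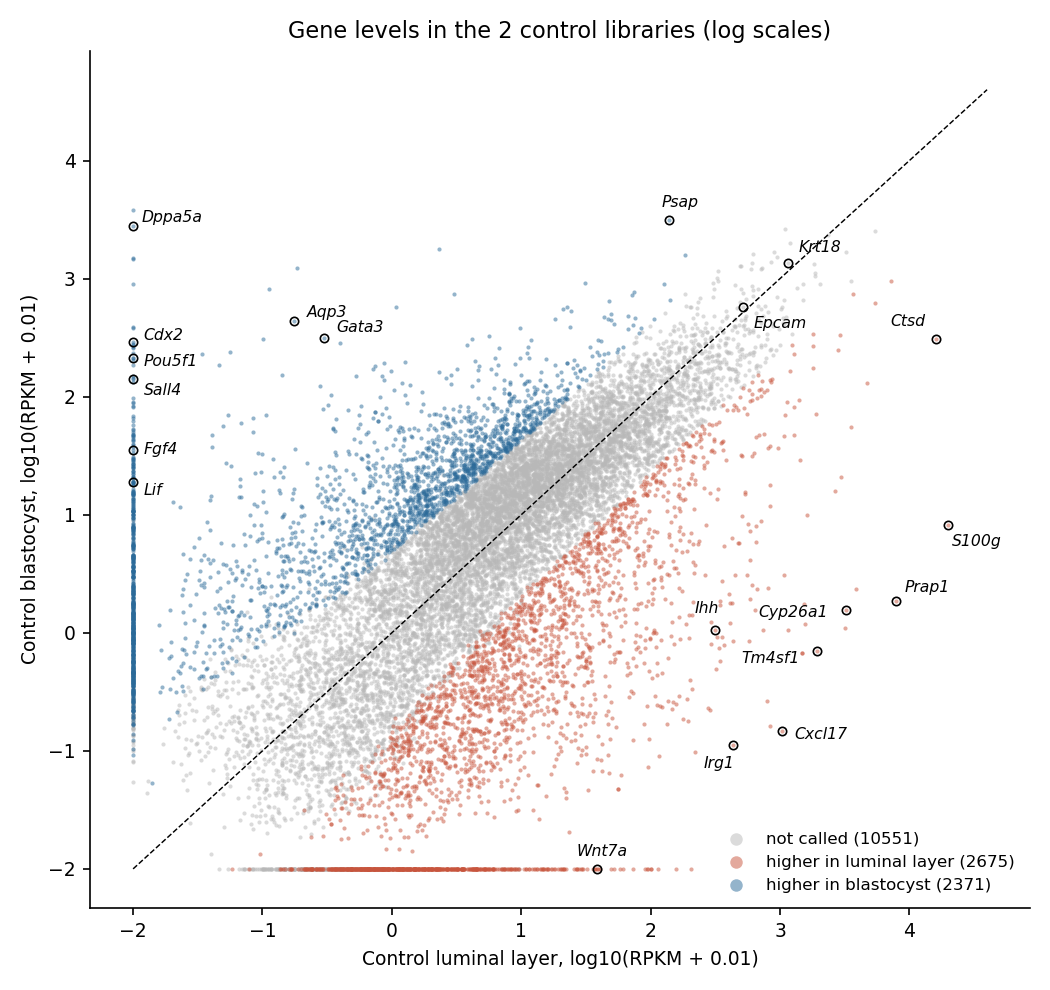
Levels of the 15597 tested genes in the libraries labelled control, luminal layer on the x axis and blastocyst on the y axis, both as log10(RPKM + 0.01), with 1 point per gene. Red and blue mark the 2675 and 2371 genes called higher in the luminal layer and in the blastocyst, grey those not called, and points on either line at -2 had 0 counts. *Krt18* and *Epcam* lie near the diagonal and *Prap1* and *Dppa5a* far from it.

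Of the 8 most abundant luminal transcripts of 500 bases or more, 7 were called higher in the luminal layer. *Ctsd*, the lysosomal aspartic protease cathepsin D, stood at 16116, 25503 and 23603 RPKM in the luminal libraries and 308, 323 and 400.2 in the blastocyst libraries. Every luminal value was far above every blastocyst value, and the control ratio was 52.3-fold (log2 5.68 to 5.73, 95% interval). *Prap1*, which encodes a proline-rich acidic secreted protein (chromosome 7, 140093396 to 140097203), stood at 7931, 177 and 2668 RPKM in the luminal libraries. In the blastocyst it was 1.86, 0.246 and 0.166 RPKM. Its luminal level was lowest in the eKO library, and the 3 pairs gave a log2 ratio of 11.84 ± 2.25 (SD, n = 3), with an edgeR adjusted p of 8.5e-04. *Tmsb4x*, which encodes an actin-sequestering thymosin, was at 7201, 24129 and 9581 RPKM against 963, 1245 and 918 in the blastocyst. *Gsto1* (a glutathione transferase) and *Gpx1* (a glutathione peroxidase) had control levels of 5384 and 3654 RPKM, which were 8.61-fold and 4.92-fold those of the blastocyst. *Lars2*, a mitochondrial leucyl-tRNA synthetase gene, was high on both sides at 5418 and 2511 RPKM, but it holds sequence resembling ribosomal RNA and its value is uncertain.

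The largest luminal ratios belonged to genes of varied function. *S100g* encodes the cytosolic calcium-binding protein calbindin-D9k. It was at 19761, 13478 and 7209 RPKM in the luminal libraries and 8.12, 15.5 and 5.36 in the blastocyst libraries, and its control ratio was 2435-fold. In the control luminal library this level was above that of *Ctsd*, though the gene was too short to be ranked with it. *Cyp26a1*, which encodes an enzyme that degrades retinoic acid, was at 3208, 50.2 and 2322 RPKM in the luminal libraries and 1.54, 1.34 and 0.260 in the blastocyst. The eKO luminal library was the low one, at 50.2 RPKM, so that the pairs spread widely around a mean log2 ratio of 9.79 ± 4.09 (SD, n = 3). *Cxcl17*, a mucosal chemokine, was at 1033, 469.6 and 1882 RPKM in the luminal libraries, with only 2 counts in the control blastocyst library. Its ratio of 7455-fold had a log2 interval of 11.01 to 15.91, and edgeR gave an adjusted p of 8.3e-05. *Irg1* (Acod1), the enzyme that makes itaconate, was at 432, 194 and 712 RPKM against 0.102, 2.64 and 0.517. *Tm4sf1*, a tetraspanin-like membrane protein, was at 1922, 357 and 2355 RPKM against 0.692, 0.187 and 0.379. *8430408G22Rik* (Depp1) had control values of 3191 and 1.08 RPKM, but only 1.25 RPKM in the eKO luminal library. *Serpina1e*, at 836 and 0.153 RPKM, belongs to a family of near-identical antitrypsin genes and is uncertain. *Ifitm1*, an interferon-induced membrane protein gene, was at 3856, 1064 and 7549 RPKM in the luminal libraries against 2.32, 3.39 and 2.21. Each of these genes had its lowest luminal value above its highest blastocyst value, narrowly so for *8430408G22Rik*. The same held for 94.7% of the luminal calls and 36.6% of all tested genes. These genes were named for their large control ratios, so this adds no separate evidence.

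The largest blastocyst ratios belonged to genes that were at or near 0 in the luminal layer. *Dppa5a* (chromosome 9), which encodes an RNA-binding protein of pluripotent cells, was at 2794, 2996 and 2922 RPKM in the blastocyst libraries and 0, 3.02 and 0 RPKM in the luminal libraries. *Calcoco2*, known as an autophagy receptor gene, was at 1504, 1471 and 2015 RPKM in the blastocyst libraries and at 0, 0.554 and 0 in the luminal ones. Since the control luminal library had 0 counts of both, the control levels were at least 14192-fold and at least 24267-fold higher in the blastocyst against a floor of 3 counts. *Sall4*, a zinc finger factor of the pluripotency network, had 0 counts in all 3 luminal libraries and 142, 157 and 173 RPKM in the blastocyst libraries, at least 5736-fold higher in the control pair. *BC053393* and *Dppa1*, neighbours on chromosome 11, were at 1457 and 379.5 RPKM in the control blastocyst and at 0 in the control luminal library. *Crxos1*, a homeobox gene of preimplantation embryos, and *BC051665* were also at 0 in that library, with 278 and 895 RPKM in the control blastocyst. The pseudogene *2210409E12Rik* (3839 RPKM in the control blastocyst) can share reads with its parent gene and is uncertain.

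Of the 8 most abundant blastocyst transcripts, 3 were called higher in the blastocyst. *Psap*, the precursor of lysosomal saposins, was at 3149, 3403 and 2657 RPKM in the blastocyst libraries and 139.7, 94.9 and 72.1 in the luminal ones, which put it 22.5-fold higher in the control blastocyst. *Fabp3*, a fatty acid binding protein, was at 1767, 2098 and 1384 RPKM against 2.29, 6.48 and 1.18 in the luminal libraries. In contrast, the actin regulators were shared. *Pfn1* (profilin) was at 2320.2 RPKM in the control blastocyst and 2368 in the control luminal layer, and *Cfl1* (cofilin) was at 1988 and 1183. *Actb*, which encodes beta-actin, was at 2646 and 1083 RPKM and *Ftl1*, the ferritin light chain, at 1689 and 3262. These 4 genes were not called by size. edgeR called *Actb* higher in the blastocyst (adjusted p = 0.0026) and *Ftl1* higher in the luminal layer (adjusted p = 0.0013).

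Promoter sequences are shown for 4 genes that mark the sides in these data, chosen after their values were seen. They are the RefSeq windows of 300 bases (250 before and 50 after the start) on GRCm38.p6, 5′ to 3′ on the gene's strand. *Prap1* lies on the plus strand (chr7:140093146-140093445), *Cyp26a1* on the plus strand (chr19:37697558-37697857), *Dppa1* on the minus strand (chr11:46629225-46629524) and *Cdx2* on the minus strand (chr5:147307200-147307499). Capitals mark matches on either strand to any of 4 motifs. The TATA box was searched as TATAAA. The core bound by Tead factors was searched as CATTCC. The Gata site was searched as AGATAA. The Stat site was searched as TTCNNNGAA, with N any base. Positions are counted with the first transcribed base as 0.
Prap1: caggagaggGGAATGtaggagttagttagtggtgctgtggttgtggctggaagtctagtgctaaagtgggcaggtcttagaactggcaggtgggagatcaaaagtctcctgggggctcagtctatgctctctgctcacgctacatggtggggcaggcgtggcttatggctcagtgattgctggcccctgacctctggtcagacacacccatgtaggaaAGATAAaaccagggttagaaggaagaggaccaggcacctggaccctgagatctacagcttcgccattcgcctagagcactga
Cyp26a1: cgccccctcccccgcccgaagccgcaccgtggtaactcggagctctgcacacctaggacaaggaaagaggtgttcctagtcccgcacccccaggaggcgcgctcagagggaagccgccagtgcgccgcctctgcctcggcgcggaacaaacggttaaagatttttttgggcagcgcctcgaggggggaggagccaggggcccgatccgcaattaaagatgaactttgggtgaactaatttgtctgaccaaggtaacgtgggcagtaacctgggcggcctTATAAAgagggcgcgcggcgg
Dppa1: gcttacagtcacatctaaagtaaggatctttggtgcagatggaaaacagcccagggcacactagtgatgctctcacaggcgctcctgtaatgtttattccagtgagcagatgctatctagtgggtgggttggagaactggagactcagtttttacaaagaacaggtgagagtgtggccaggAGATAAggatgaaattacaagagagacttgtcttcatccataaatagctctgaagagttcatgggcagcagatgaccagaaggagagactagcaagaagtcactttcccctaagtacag
Cdx2: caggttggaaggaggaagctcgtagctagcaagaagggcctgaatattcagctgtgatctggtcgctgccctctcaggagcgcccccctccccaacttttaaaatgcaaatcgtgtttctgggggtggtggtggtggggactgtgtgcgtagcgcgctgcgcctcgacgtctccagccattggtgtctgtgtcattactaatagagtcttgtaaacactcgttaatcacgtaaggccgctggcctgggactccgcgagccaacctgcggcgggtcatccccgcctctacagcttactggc
The *Prap1* window held CATTCC (printed as its reverse complement) at -241 and AGATAA at -32 from the start, the *Cyp26a1* window TATAAA at 29, and the *Dppa1* window AGATAA at -69. None of the 4 motifs was in the *Cdx2* window. Of all 32851 RefSeq promoters in the table, 13.6% held TATAAA, 14.7% CATTCC, 11.2% AGATAA and 8.30% TTCNNNGAA. CpG dinucleotides numbered 26 in *Cyp26a1*, 18 in *Cdx2*, 4 in *Prap1* and 1 in *Dppa1*, with a median of 7 over all promoters. A motif check over the called genes was void, because only 75.8% of the luminal and 78.7% of the blastocyst calls had a promoter in the table. These matches are letters in a window and not evidence of binding.

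The labels of both tissues were checked against marker lists. For this and every list below, the shares over all tested genes were 17.2% called higher in the luminal layer and 15.2% in the blastocyst. Luminal epithelium markers summed to 3524 to 5628 RPKM in the luminal libraries and 232 to 388 in the blastocysts, and 13 of 16 tested were called higher in the luminal layer. *Ihh*, the Indian hedgehog ligand of the progesterone response, was at 314, 64.6 and 476 RPKM against 1.06, 0.50 and 0.253, a log2 ratio of 8.70 ± 1.98 over the 3 pairs (SD, n = 3). *Lpar3*, a lysophosphatidic acid receptor needed for embryo spacing, was at 135, 206 and 91.2 RPKM against 0.253, 0.551 and 0.537. *Muc1* and *Krt7* from the same list were not called, and the blastocyst held 13.7 and 75.3 RPKM of them. Of the 8 tested glandular markers, 3 were higher in the luminal layer and 2 in the blastocyst. *Foxa2*, which marks uterine glands, was near 0 in the luminal layer (0.0591, 0 and 0.169 RPKM), and the glandular proteases *Prss28* and *Prss29* were low there at 1.94 and 4.37 RPKM.

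Markers of other uterine cells were present in the luminal libraries. Of the 13 stromal genes, 11 were called higher in the luminal layer, with summed levels of 324 to 498 RPKM against 29.5 to 36.8 in the blastocysts, and all 13 were present in the control luminal library. *Dcn* (decorin) was at 107, 129 and 89.1 RPKM and *Col3a1* (fibrillar collagen) at 43.1, 90.8 and 53.9 in the luminal libraries. The immune list summed to 882 to 1024 RPKM there, with 8 of 12 called higher in the luminal layer and 1 higher in the blastocyst. *Lyz2* (lysozyme M) alone was at 746, 585 and 486 RPKM and *Tyrobp*, an adaptor of myeloid and natural killer cells, at 96.0, 155 and 143. Smooth muscle and endothelial lists were lower, at 14.0 to 37.1 and 30.7 to 43.1 RPKM, with 7 of 7 and 3 of 8 called higher in the luminal layer. In the endothelial list 1 gene was called higher in the blastocyst. These genes move with the tissue difference, and their part in the luminal values of stromal, matrix and immune genes reported below was not tested.

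Inner cell mass markers summed to 5174 to 5766 RPKM in the blastocysts and 163 to 273 in the luminal libraries, and 14 of 18 were called. *Pou5f1* and *Nanog*, factors of the pluripotent epiblast, were at 212, 218 and 287 and 88.6, 78.6 and 133 RPKM, and both had 0 counts in all 3 luminal libraries. *Tfcp2l1*, *Klf4*, *Klf5* and *Klf2* were not called, and the control luminal layer held 55.7, 12.4, 184 and 19.7 RPKM of them. Of the trophectoderm list, 10 of 14 were called, and its members summed to 4779 to 5295 RPKM in the blastocysts and 1464 to 3146 in the luminal libraries. The 4 not called were *Krt8*, *Krt18*, *Id2* and *Fgfr2*, which the control luminal layer held at 491, 1152, 334 and 42.8 RPKM. *Cdx2*, the trophectoderm homeobox factor, was at 290.4, 381 and 444 RPKM against 0, 0.246 and 0 in the luminal libraries, and *Gata3* at 315, 383 and 363 against 0.287, 0.0437 and 0.123. *Gata2*, which acts in both trophoblast and uterus, was 5.70-fold higher in the control blastocyst, but the luminal libraries held 30.5, 87.9 and 23.6 RPKM.

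The primitive endoderm list gave 7 genes higher in the blastocyst and 2 higher in the luminal layer of 13, and its summed levels were lower in the blastocysts (455 to 539.9 RPKM) than in the luminal layer (553 to 874). *Gata6* and *Dab2* (an endocytic adaptor) were at 56.9, 56.5 and 86.9 and 199.6, 211 and 173 RPKM in the blastocysts. *Sox17*, a transcription factor that the uterine epithelium also uses, was one of those higher in the luminal layer, at 363, 550 and 753 RPKM there and 35.0, 36.3 and 41.6 in the blastocyst. Of the 10 tested oocyte genes, 1 was higher in the luminal layer and 6 in the blastocyst, led by *Khdc3* and *Dppa3* at 1236 and 821 RPKM in the control library. *Zp1*, a zona pellucida gene, was at 0 counts in all 6 libraries.

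**Figure D2:**
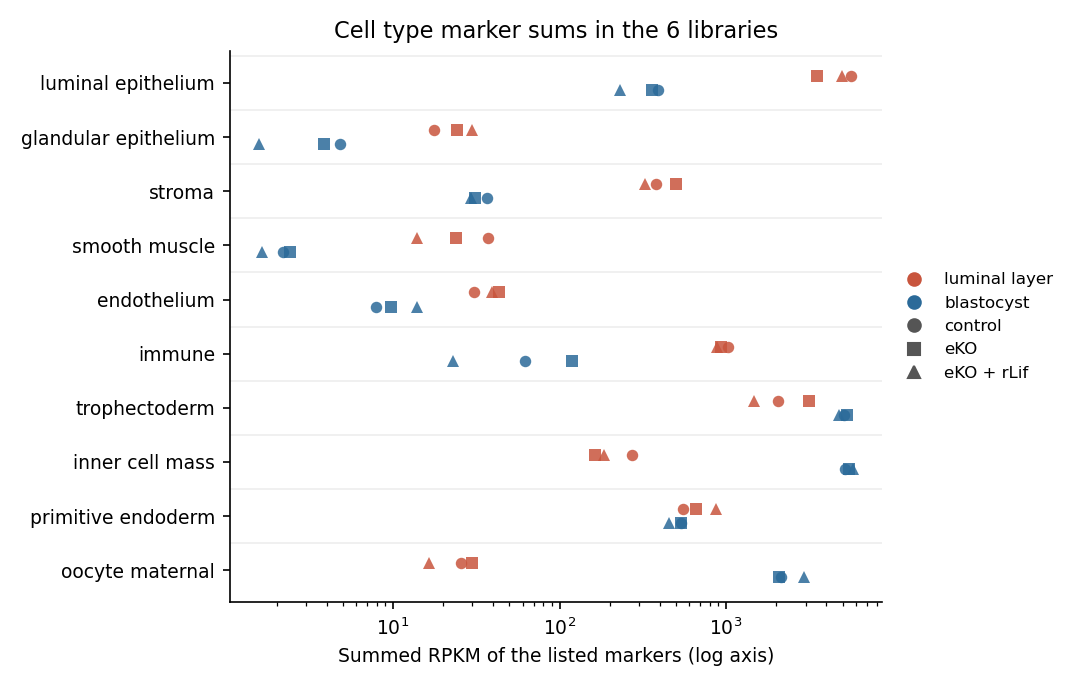
Summed RPKM of the members of 10 cell type marker lists (log x axis) in each of the 6 libraries, red for the luminal layer and blue for the blastocyst, with shapes for the labelled condition and 1 point per pooled library. Luminal epithelium and stroma sums are higher in all 3 luminal libraries, inner cell mass and oocyte sums higher in all 3 blastocyst libraries, and primitive endoderm sums lie close together.

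Genes for the receptive state were mostly luminal. Of 17 listed transcription factors of receptivity, 9 were called higher in the luminal layer and 3 in the blastocyst, and the median log2 ratio was 2.85 in the control pair and 3.78 and 3.67 in the other pairs, against 0.00762, -0.166 and -0.195 over all genes. *Cebpb*, a leucine zipper factor, was at 565, 155 and 859 RPKM against 8.30, 11.3 and 5.89 in the blastocyst. *Msx1*, a homeobox gene whose exons overlap those of another gene, was at 205, 665 and 309.9 RPKM against 28.5, 28.0 and 20.9. Its relative *Msx2* lay on the other side, 15.2-fold higher in the control blastocyst (24.2 against 1.59 RPKM). *Stat3* was not called and the tissues overlapped, with 53.8, 25.2 and 62.7 RPKM in the luminal libraries and 43.4, 52.8 and 55.9 in the blastocysts.

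Of the steroid receptor list, which also holds chaperones and coregulators, 4 of 15 tested genes were called higher in the luminal layer. *Esr1* (estrogen receptor alpha) was at 17.3, 17.7 and 11.7 RPKM in the luminal libraries and 0.293, 0.236 and 0.0954 in the blastocysts, and *Pgr* (progesterone receptor) at 3.62, 8.85 and 4.84 and 0.183, 0.148 and 0.0673. *Pgrmc1*, a membrane-associated progesterone-binding protein, was the most abundant of these, at 435 RPKM in the control luminal layer and 76.7 in the blastocyst. The coactivator *Ncoa3* was the 1 member of 15 tested called higher in the blastocyst, at 33.6 RPKM against 2.99. The list's median log2 ratio was 0.00 in the control pair and -0.29 and -0.43 in the other pairs, and -0.44 in the control pair under TPM scaling.

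Secreted defence genes were mostly luminal. Of 15 listed genes of secreted defence, 13 were higher in the luminal layer and 0 in the blastocyst, with a median log2 ratio of 5.98 in the control pair and 2.99 and 5.89 in the other pairs. *Wfdc2*, a whey acidic protein family member, was at 3508, 2021 and 2822 RPKM in the luminal libraries against 55.8, 54.8 and 47.5. *Sftpd*, the collectin surfactant protein D, was at 571, 34.3 and 846 RPKM against 0.834, 0.307 and 0.272, with its lowest luminal value in the eKO library. *Gpx3*, a secreted peroxidase, reached 712 RPKM in the control luminal library alone, with 5.56 and 12.8 in the others against 8.85, 8.63 and 4.55 in the blastocysts. Its groups therefore overlapped. Antigen presentation genes were higher in the luminal layer for 11 of 13 tested. *B2m*, the light chain of class I molecules, was at 1422, 3933 and 2341 RPKM in the luminal layer and 28.8, 41.3 and 26.1 in the blastocyst, and the class I gene *H2-K1* at 603, 659 and 549 and 105, 94.5 and 128. The class II gene *H2-Aa*, usual in antigen-presenting cells, was at 144, 177 and 216 and 1.77, 2.52 and 1.35 RPKM. *H2-K1* belongs to a family of near-identical copies and is uncertain, and the immune markers given above stood in the same luminal libraries.

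Proteases and their inhibitors lay on both sides (6 higher in the luminal layer, 2 in the blastocyst, of 20), beside 17.2% and 15.2% of all tested genes. *Ctsb* (cathepsin B, overlapping exons) was at 1074, 409 and 2019 RPKM against 46.1, 36.8 and 31.8. *Mmp7*, the epithelial matrilysin, had 0 counts in the control blastocyst and 157, 2.16 and 6.02 RPKM in the luminal libraries, high mainly in the control. The proprotein convertases *Furin* and *Pcsk6*, which cut growth factor precursors, were 6.11-fold and 4.33-fold higher in the control blastocyst. Of the mucin and glycocalyx list, 1 of 15 was higher in the blastocyst and 6 in the luminal layer, among them *Cd24a* at 581, 1060.4 and 509.8 RPKM against 4.15, 4.57 and 1.93.

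Genes of division, DNA methylation and sterol synthesis were called more often on the blastocyst side. Of 20 cell cycle genes, 14 were higher in the blastocyst and 2 in the luminal layer, with a median log2 ratio of -2.75 in the control pair and -3.48 and -3.16 in the other pairs. *Ccnb1*, the mitotic cyclin B1, was at 190.3, 182 and 227 RPKM against 8.94, 4.98 and 1.13 in the luminal layer, and *Mcm2*, a subunit of the replicative helicase, at 115, 117 and 117 against 13.2, 7.84 and 9.40. *Cdkn1c*, the cell cycle inhibitor p57, was 17.5-fold higher in the control luminal layer, at 95.1 RPKM. *Pcna* was not called, at 79.6 and 60.5 RPKM.

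DNA methylation and chromatin genes were higher in the blastocyst for 9 of 13, with a median log2 ratio of -3.91 in the control pair and -4.04 and -3.97 in the other pairs. *Dnmt3b* and its cofactor *Dnmt3l*, of de novo methylation, were at 61.8, 61.4 and 64.2 and 51.5, 49.4 and 41.8 RPKM in the blastocysts, and below 1 RPKM in all luminal libraries. *Uhrf1*, which guides maintenance methylation, was at 67.5, 75.9 and 66.1 RPKM against 4.48, 2.15 and 4.23, and *Tet2*, a methylcytosine dioxygenase, at 40.2, 43.2 and 51.2 against 2.08, 2.63 and 1.94. *Tet3* was at 3.55 and 3.57 RPKM in the control libraries and was not called. Cholesterol synthesis genes were higher in the blastocyst for 6 of 13, with *Hmgcs1* at 54.8, 57.3 and 56.4 RPKM against 8.82, 4.87 and 4.11. Of 18 respiratory chain genes, 1 was called by size (*Ndufb8*, higher in the luminal layer). By edgeR, with its lower log2 limit of 1, 6 were higher in the luminal layer and 4 in the blastocyst. Their control median of log2 0.02 became -0.42 under TPM scaling.

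**Figure D3:**
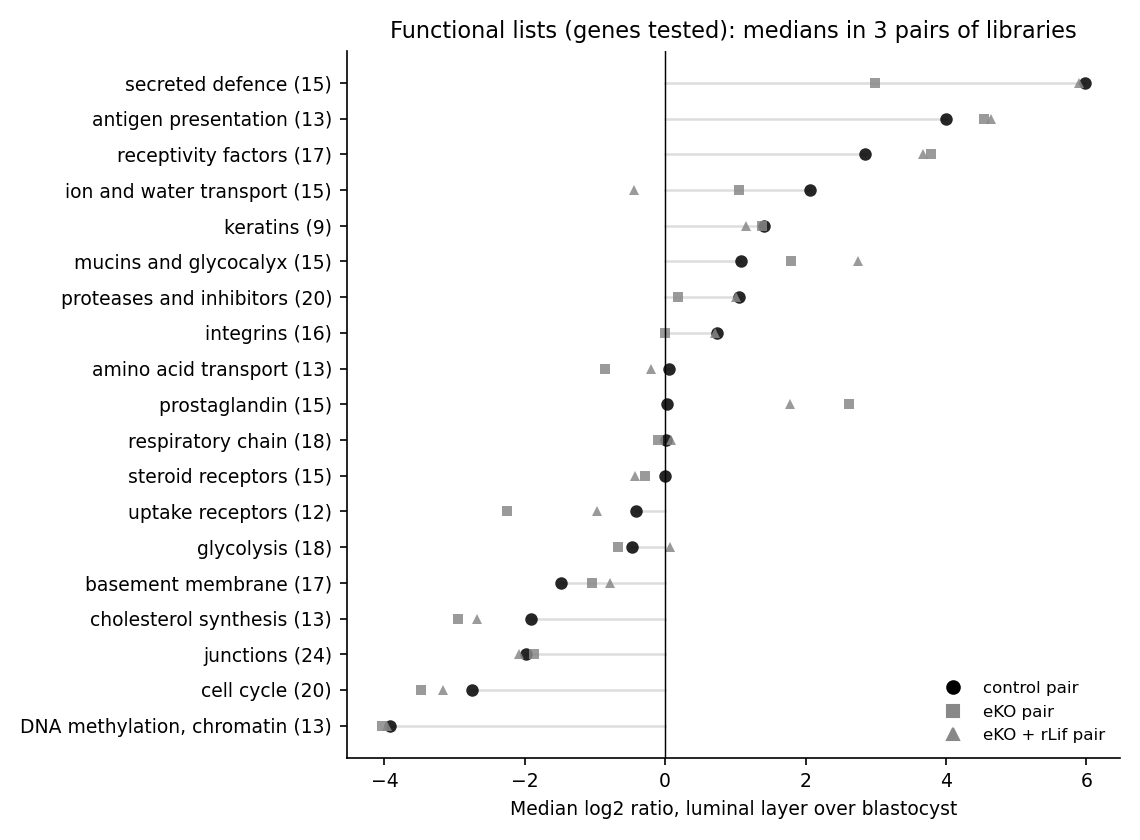
Median log2 ratio of luminal layer over blastocyst in 19 functional gene lists (number of genes tested in brackets), with black circles for the pair labelled control and grey symbols for the eKO and rLif-treated eKO pairs. Secreted defence and antigen presentation lie to the right in all 3 pairs, and DNA methylation and cell cycle to the left in all 3.

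Several families were split between the sides, and the members named here for it were chosen after their values were seen. Of 24 junction genes, 5 were higher in the luminal layer and 10 in the blastocyst. Claudins, which seal tight junctions, divided member by member. *Cldn3* (overlapping exons) was at 4700, 4505 and 3532 RPKM in the luminal layer against 131, 111 and 61.1, and *Cldn10* at 797, 22.1 and 1666 against 0.255, 0.176 and 0.107. *Cldn4* lay the other way, at 641, 591 and 529 RPKM in the blastocysts against 47.4, 18.5 and 22.8, and *Cldn6* at 144, 123 and 115 against 0, 0.0467 and 0.191. *Cldn7* was abundant on both sides, at 1033 and 571 RPKM in the control luminal layer and blastocyst, and was not called. The adhesion receptor *Cdh1* (E-cadherin) was at 55.7 and 223 RPKM, and its log2 interval (-2.04 to -1.96) crossed the limit.

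Connexins, the subunits of gap junctions, were divided too. *Gjb2* was at 191, 7.19 and 289 RPKM in the luminal libraries and 0.263, 0 and 0 in the blastocysts, with the low luminal value in the eKO library. *Gjb5* was at 186, 172 and 167 RPKM in the blastocysts and 6.64, 1.42 and 13.7 in the luminal layer. *Gja1* (connexin 43) was 5.07-fold higher in the control blastocyst, with 235 against 46.5 RPKM. Among aquaporins, water channels of the plasma membrane, *Aqp3* was at 438, 413 and 269 RPKM in the blastocysts against 0.166, 0.598 and 0.428 in the luminal layer, and *Aqp9* at 42.5, 62.0 and 37.0 with 0 counts in every luminal library. *Aqp11* was higher in the luminal layer, at 121, 219 and 91.8 RPKM against 3.70, 4.08 and 4.52. Of the whole ion and water transport list, 7 genes were higher in the luminal layer and 4 in the blastocyst, of 15. Its median log2 ratio was 2.06 in the control pair and 1.05 and -0.45 in the other pairs, so its sign turned in the rLif pair. *Atp6v0d2*, a proton pump subunit, was at 345, 1.47 and 105 RPKM in the luminal libraries and 0.568, 0.0814 and 0 in the blastocysts.

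Prostaglandin genes were called in both directions. The phospholipase *Pla2g4a*, which releases arachidonic acid, was at 33.1, 169 and 29.5 RPKM in the luminal layer and 0.0370, 0.519 and 0 in the blastocyst, and *Ptgs1* (cyclooxygenase 1) at 47.4, 33.5 and 19.4 and 0.993, 0.640 and 1.02. *Ptges*, which makes prostaglandin E2 from the cyclooxygenase product, was the reverse, at 162, 191 and 205 RPKM in the blastocyst and 2.31, 2.54 and 2.14 in the luminal layer. The prostaglandin E2 receptors *Ptger2* and *Ptger4* were luminal, at 287, 71.6 and 286 and 28.9, 25 and 9.44 RPKM against 0.210, 0.0405 and 0.0273 and 0.515, 0.464 and 0.0695. *Ptger3*, a receptor of the same ligand, was called higher in the control blastocyst (13.6 against 1.23 RPKM), but the eKO and rLif blastocysts held 0.151 and 0.281 RPKM, below the luminal libraries, and it did not pass the edgeR test (adjusted p = 0.34). Over the list, 6 genes were higher in the luminal layer and 4 in the blastocyst of 15, and the median log2 ratio was 0.03 in the control pair and 2.61 and 1.78 in the other pairs.

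Energy and uptake genes were called in both directions. *Ldhb*, a lactate dehydrogenase subunit, was at 335, 73.8 and 77.9 RPKM in the luminal layer against 0.735, 0.592 and 0.679. *Ldha* was at 762, 771 and 1052 against 196, 49.8 and 15.1 and was not called in the control pair, whose blastocyst library was the highest of the 3. The glucose transporter *Slc2a3* was at 459, 479 and 267 RPKM in the blastocysts against 18.2, 89.3 and 27.9, and *Hk2* (hexokinase 2) at 67.6, 82.8 and 56.6 against 3.61, 17.9 and 6.68. Over the glycolysis list 2 genes were higher in the luminal layer and 4 in the blastocyst, of 18. This was not far from the 17.2% and 15.2% over all tested genes. Of the amino acid transporters, 4 of 13 were higher in the blastocyst, with *Slc38a4* at 66.3, 79.9 and 65.8 RPKM and 0 counts in all luminal libraries, and *Slc1a5* alone was higher in the luminal layer (165 against 11.5 RPKM in the control pair). That list's control median of log2 0.05 became -0.55 with a minimum of 50 counts or without genes of overlapping exons. Endocytic receptors were higher in the luminal layer for 2 of 12 and in the blastocyst for 5, such as the folate receptor *Folr1* at 148, 152 and 159 RPKM against 0.834, 0.450 and 0.179.

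Cytoskeletal keratins and matrix receptors were partly shared. *Krt8* and *Krt18*, the keratin pair of simple epithelia and trophectoderm, were at 491 and 1152 RPKM in the control luminal layer and 1266 and 1361 in the blastocyst, and neither was called. *Krt19* was at 261, 1461 and 238 RPKM in the luminal libraries and 53.7, 8.93 and 4.05 in the blastocysts, so both tissues varied between libraries. Of 9 tested keratins, 3 were higher in the luminal layer and 1 in the blastocyst, but that 1 did not pass the edgeR test. Integrins gave 4 and 3 of 16, and over all tested genes the shares were 17.2% and 15.2%. *Itgb1*, the common beta subunit, was at 49.9 and 56.3 RPKM, whereas *Itga5*, its fibronectin partner, was at 31.2, 37.0 and 25.6 RPKM in the blastocysts against 2.89, 2.45 and 2.12. Basement membrane genes were higher in the luminal layer for 2 of 17 and in the blastocyst for 6, with the linker *Nid1* at 126, 132 and 76.6 RPKM against 20.1, 33.4 and 21.1.

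**Figure D4:**
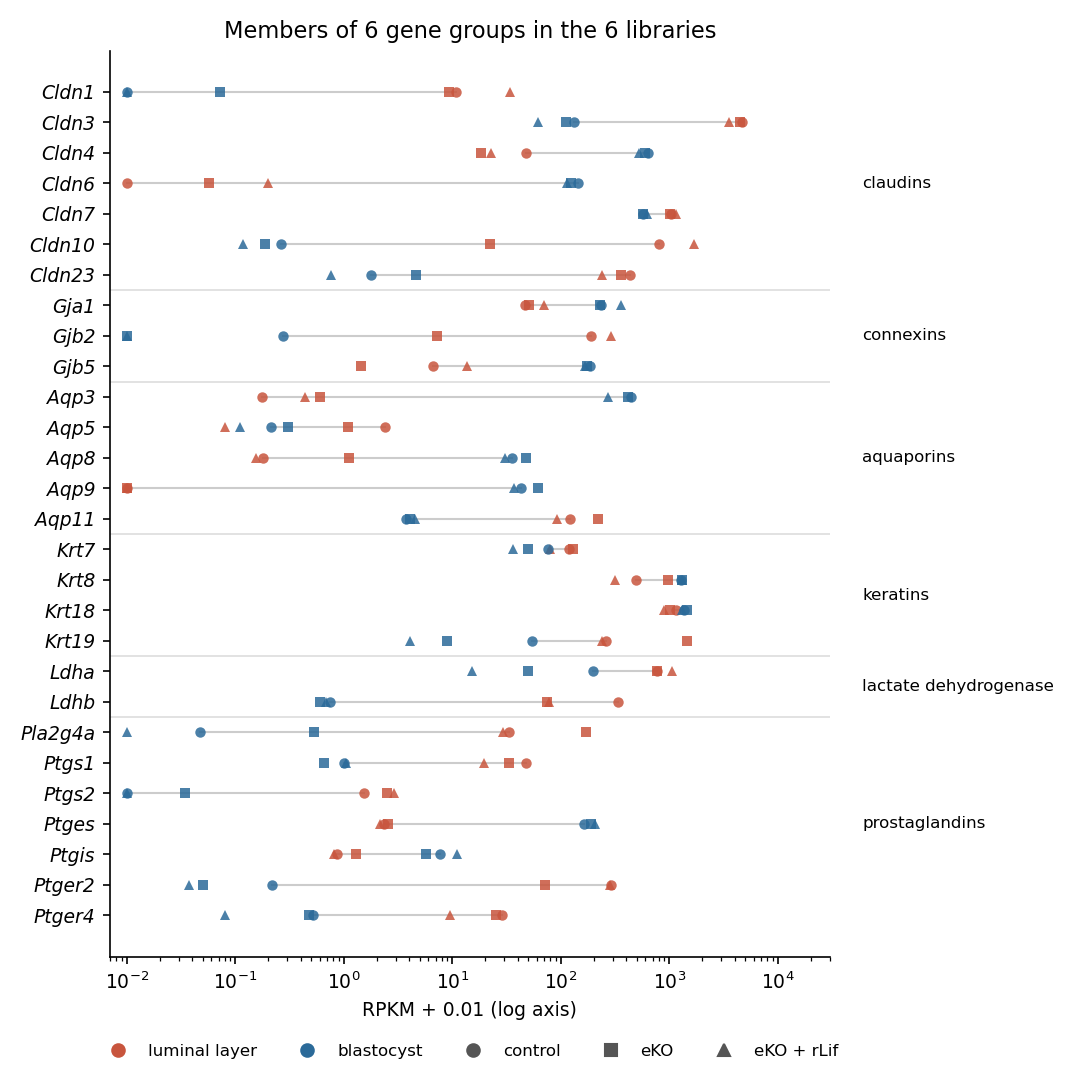
RPKM + 0.01 (log x axis) of members of 6 gene groups in the 6 libraries, red for the luminal layer, blue for the blastocyst, with shapes for the labelled condition and lines joining the control libraries of each gene. Points at 0.01 had 0 counts. *Cldn3*, *Gjb2* and *Ldhb* lie higher in the luminal layer, *Cldn4*, *Gjb5* and *Ptges* higher in the blastocyst, and *Cldn7* and *Krt18* lie close.

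Ligands and receptors were next set against each other across the interface, from a list of 160 pairs in 16 families. A pair was counted in a direction where the ligand was present on one side and every receptor subunit on the other, at 1 RPKM and 10 counts in the control libraries. This describes transcripts, and shows neither protein nor binding. Of 117 tested ligands, 48 were called higher in the luminal layer and 26 in the blastocyst, and of 118 tested receptor subunits 34 and 14. The shares over all tested genes were 17.2% and 15.2%. Across the interface, 56 pairs were present from luminal ligand to blastocyst receptor and 57 from blastocyst ligand to luminal receptor, with 31 in both directions and 78 in neither. Required in all 3 libraries of each tissue, these were 39 and 38. Within a side, 76 pairs were present in the luminal layer and 55 in the blastocyst. Some genes sat at the limit: *Egfr* in the control blastocyst (0.957 RPKM), *Bmpr2* in the luminal layer (0.849) and *Acvr1* in the blastocyst (0.894) fell just short, and *Ptch1* in the blastocyst (1.12) and *Notch2* there (1.01) just passed.

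**Figure D5:**
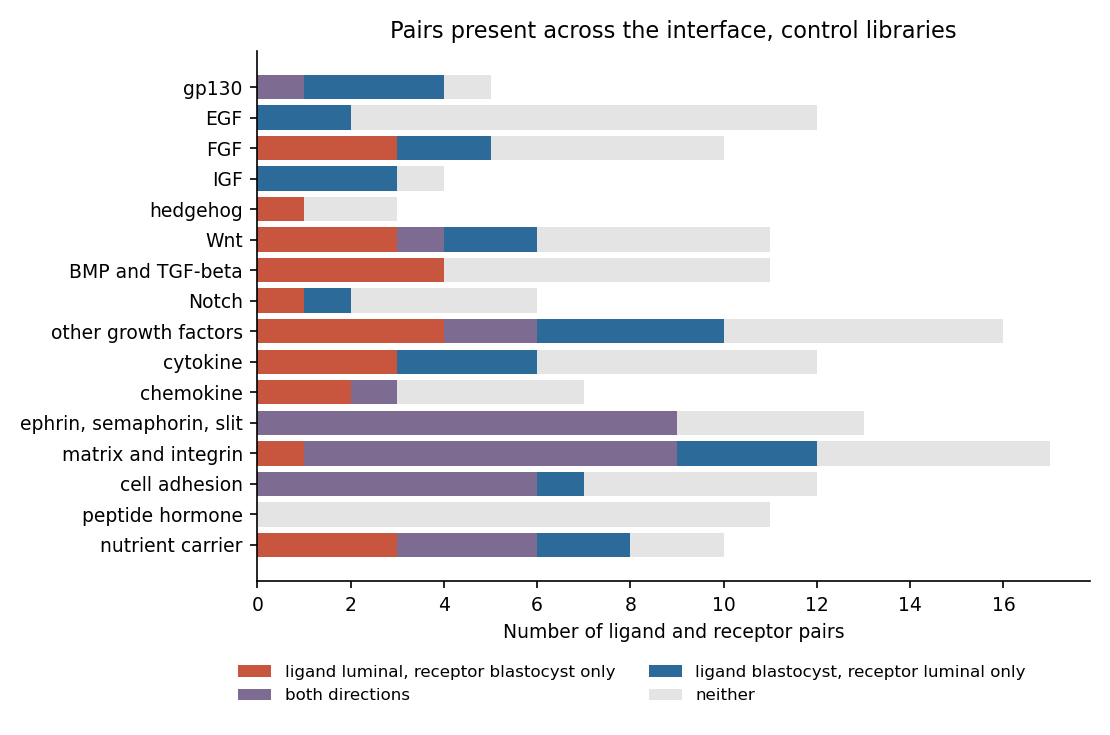
Number of ligand and receptor pairs (x axis) in each of 16 families present across the interface in the libraries labelled control, coloured by direction, with grey for pairs present in neither direction. Ephrin, semaphorin and slit pairs are mostly present in both directions, and matrix pairs for 8 of 17. Where present, hedgehog and BMP pairs run only from luminal ligand to blastocyst receptor and IGF pairs only from blastocyst ligand to luminal receptor. Blastocyst *Bmp4*, *Gdf3* and *Dhh* are present too, but luminal *Bmpr2* (0.849 RPKM), *Acvr1b* (0.537) and *Ptch1* (0.750) lie below the limit of 1 RPKM. Required in all 3 libraries of each tissue, 0 hedgehog pairs and 1 BMP pair remain in the luminal to blastocyst direction. Peptide hormone pairs are present in neither.

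In the gp130 family, ligands and receptors were found on both sides. *Lif* was at 18.9, 21.9 and 15.9 RPKM in the blastocysts, where its counts were 1447, 1736 and 1250. Its control level was at least 606-fold higher there against the floor of 3 counts, and edgeR gave an adjusted p of 7.9e-04. *Lifr* was 5.49-fold higher in the control luminal layer, at 21.8, 4.97 and 15.8 RPKM against 3.96, 5.57 and 2.60, and *Il6st* was at 5.08, 5.32 and 6.91 against 9.64, 12.1 and 9.93 and was not called. *Osmr*, the oncostatin M receptor, was at 12.3, 0.516 and 31.1 RPKM in the luminal layer against 0.0218, 0 and 0.0213, and *Il11ra1*, the interleukin 11 receptor (overlapping exons), at 23.5, 24.5 and 25.3 against 1.85, 0.883 and 2.05. The eKO luminal value of *Lifr* lay within the blastocyst range, and its log2 ratio over the 3 pairs was 1.63 ± 1.56 (SD, n = 3). *Ctf1* (cardiotrophin 1), a ligand of the same receptor pair, was at 54.8, 149.6 and 45.6 RPKM in the luminal layer against 1.88, 0.909 and 0.881, 29.2-fold higher in the control pair and log2 5.97 ± 1.27 over the 3 pairs (SD, n = 3). *Il6* was at 22.6, 22.4 and 34.3 RPKM in the blastocysts and 0.0771, 7.76 and 3.51 in the luminal layer, and did not pass the edgeR test (adjusted p = 0.059).

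Growth factors of the FGF, IGF and EGF families showed different directions. *Fgf4*, made by the epiblast to maintain trophoblast stem cells, had 0 counts in all luminal libraries and 35.5, 43.7 and 38.2 RPKM in the blastocysts, and edgeR gave an adjusted p of 2.0e-05. *Fgf10* was at 13.9, 17.9 and 13.1 RPKM in the blastocysts against 0.367, 0.576 and 0.275. *Fgfr2*, listed here as a receptor for both, was abundant on both sides at 42.8 and 83.1 RPKM in the control libraries. *Fgfr1*, also listed for *Fgf4*, was at 35.5, 36.1 and 39.9 RPKM in the blastocysts against 0.762, 0.407 and 0.294. From the luminal side, *Fgf18* was at 5.41, 31.2 and 3.12 RPKM and its receptor *Fgfr3* at 2.24, 1.28 and 2.07 in the blastocysts. *Fgf9* was luminal in the control pair (29.2 RPKM), but at 0.883 and 19.8 RPKM in the other luminal libraries. *Igf2* (overlapping exons) was at 6.05, 4.78 and 3.25 RPKM in the blastocysts and 0.119, 0.423 and 0.170 in the luminal layer, where *Igf1r* was at 5.13, 3.73 and 4.21 RPKM. *Igf1* was present in the luminal layer (14.5 RPKM, against 0.936 in the control blastocyst), but *Igf1r* in the control blastocyst was 0.479 RPKM, below the limit. Among EGF ligands, *Areg* (amphiregulin) was at 37.3, 6.92 and 217 RPKM in the luminal layer, and *Hbegf*, a ligand known for attachment, was not called at 20.0 and 4.48 RPKM in the control luminal layer and blastocyst. No EGF pair was present from luminal ligand to blastocyst receptor at 1 RPKM, with *Egfr* at 0.957, 0.261 and 0.0400 RPKM in the blastocysts and *Erbb4* at 0 counts in the control blastocyst.

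Wnt, hedgehog and BMP family ligands were found on both sides. *Wnt7a* had 0 counts in all blastocyst libraries and 38.5, 32.8 and 49.1 RPKM in the luminal ones, at least 774-fold higher in the control pair, with an edgeR adjusted p of 3.0e-05. *Wnt11* was at 261, 192 and 211 RPKM against 3.10, 2.39 and 0.683, and *Wnt5a* at 33.5, 31.8 and 26.7 against 0.614, 0.373 and 0.330. *Wnt6* was the reverse, at 40.7, 45.9 and 52.5 RPKM in the blastocysts against 2.88, 2.29 and 1.08. *Wnt7b* (overlapping exons) was not called in the control pair, and its direction turned between pairs. It was at 184, 0.836 and 21.0 RPKM in the luminal libraries and 95.9, 93.6 and 91.9 in the blastocysts. The Wnt receptors *Fzd5* and *Fzd7* were at 4.13 and 2.65 RPKM in the control blastocyst. In return, the Wnt antagonist *Dkk1* was at 14.2, 13.6 and 10.6 RPKM in the blastocysts against 0.0563, 0 and 0, with its co-receptor target *Lrp6* at 3.23 RPKM in the control luminal layer. *Dhh*, the desert hedgehog ligand, was higher in the blastocyst at 4.18, 2.43 and 2.81 RPKM against 0.0177, 0.0891 and 0.0456. *Ihh* is described above, and *Ptch1*, its receptor, was at 1.12, 1.38 and 0.682 RPKM in the blastocysts, so that this pair was not present in all 3 libraries of each tissue. *Bmp2* was at 3.18, 1.48 and 2.66 RPKM in the luminal layer against 0.147, 0.405 and 0.512, and *Bmp4* (overlapping exons) was the reverse at 32.7, 21.5 and 19.4 RPKM in the blastocysts against 2.17, 1.57 and 0.523. *Bmp7* was higher in the luminal layer (9.38, 9.27 and 7.70 RPKM against 0.562, 0.285 and 0.0524) and *Gdf3* in the blastocyst (43.7, 39.6 and 46.7 against 1.05, 1.23 and 0.477). *Nodal* and *Bmp8b* were also called higher in the control blastocyst. *Nodal* was at 2.36, 2.75 and 0.271 RPKM in the blastocysts, low in the rLif library. *Bmp8b* was at 4.37, 0.675 and 0.245 RPKM there, high only in the control library.

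Among other growth factors, *Pdgfa* was present on both sides, at 40.9 and 135 RPKM in the control luminal layer and blastocyst, and *Pdgfra*, its receptor, at 5.36 and 18.4. *Pdgfc* was luminal, at 4.42, 5.11 and 6.12 RPKM against 0.390, 0.420 and 0.543. *Pros1*, a ligand of Tam kinases, was at 64.5, 79.3 and 63.4 RPKM in the blastocysts against 7.08, 3.77 and 4.93, and *Tyro3*, a receptor of that group, at 59.8, 65.7 and 45.7 against 9.60, 2.33 and 8.48. The chemokine *Cxcl12* was at 6.90, 1.86 and 3.21 RPKM in the luminal layer, where stromal markers were also found, and its scavenger receptor *Cxcr7* was at 15.9 RPKM there and 3.45 in the control blastocyst. No peptide hormone pair crossed the interface. The ligand *Nmb* (neuromedin B) was at 661, 60.4 and 305 RPKM in the luminal layer and 2.33, 1.67 and 2.13 in the blastocysts. Its receptor *Nmbr* was at 0 counts in the control luminal layer and 0.180 RPKM in the control blastocyst.

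Contact and matrix pairs that crossed the interface were mostly mutual, with both ligand and receptor on both sides. All 9 ephrin and semaphorin pairs that crossed did so in both directions. *Efna1* was at 196, 18.5 and 217 RPKM in the luminal layer and 39.2, 79.6 and 12.9 in the blastocysts, so the tissues overlapped (edgeR adjusted p = 0.12). *Efnb2* was at 79.4, 95.4 and 74.9 in the blastocysts against 10.8, 33.0 and 15.4. *Epcam*, a homophilic adhesion molecule, was at 514 and 570 RPKM in the control luminal layer and blastocyst, and was not called. *Spp1* (osteopontin), an integrin ligand, was at 655, 679 and 679 RPKM in the blastocysts against 141, 26.8 and 61.8, with *Itgav* and *Itgb5* present on both sides. *Cd44*, another receptor for it, was at 4.81, 12.2 and 4.38 RPKM in the luminal layer against 0.223, 0.459 and 0.164. *Dag1* (dystroglycan) was at 209, 188 and 152 RPKM in the blastocysts against 15.6, 21.6 and 11.3, and the ligand *Lama1* at 18.1, 22.7 and 8.97 against 0.322, 0 and 0.0982.

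Carriers of nutrients were the last family. *Lcn2* (lipocalin 2) and *Clu* (clusterin) were luminal, at 206, 4.53 and 372 and 152, 41.2 and 128 RPKM, and *Lrp2* (megalin), an endocytic receptor for both, was at 13.4, 29.3 and 16.8 in the luminal layer and 13.4, 12.6 and 20.0 in the blastocysts. *Apoe* was abundant on both sides at 1005 and 274 RPKM. Its receptor *Vldlr* was 22.2-fold higher in the control luminal layer (2.53 against 0.114 RPKM). *Apoa1* had 0 counts in the control luminal library and 24.9 RPKM in the control blastocyst, with *Scarb1*, its receptor, at 15.6 and 15.4.

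Of the control calls, 11 were called in the opposite direction in another pair. Of these, 9 were luminal calls turned in the eKO pair. *Gabrp*, a GABA-A receptor subunit, had 1925, 0 and 918 counts in the luminal libraries against 22, 21 and 17 in the blastocysts. *Dio3os*, the antisense RNA of a deiodinase gene, had 1435, 0 and 281 against 2, 17 and 3, and it may share reads with its antisense partner. *Chi3l1*, *Chrna4*, *Hp*, *Il1f9*, *Kng2*, *Pdk4* and *Pnp2* also had between 0 and 11 counts in the eKO luminal library. The other two were blastocyst calls that rested on the control blastocyst library. *Ptger3* had 521, 6 and 11 counts in the blastocysts against 59, 110 and 54, and *Fasl*, a death receptor ligand, 668, 3 and 13 against 42, 123 and 140. The pair of *Fasl* with its receptor *Fas*, counted above from blastocyst to luminal layer, thus held in the control library alone. *Itgb3* was likewise at 9.35, 0.819 and 0.169 RPKM in the blastocysts, and neither it nor *Fasl* passed the edgeR test (adjusted p = 0.18 and 0.41).

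Called genes also differed by class and length. Of the 167 lincRNA genes tested, 25.1% were higher in the luminal layer and 15.0% in the blastocyst. Processed transcripts, 143 in all, gave 31.5% and 10.5%, and protein coding genes 17.1% and 15.6%. On the X chromosome, 19.5% and 21.1% were called. The median exon length was 2407 bases for genes higher in the luminal layer and 3333 bases for those higher in the blastocyst, against 2744 over all tested genes. The way the RNA was collected moves with tissue here, and its part in the length difference was not tested.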

How the data were processed

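RNA-seq counts were obtained for 6 pooled libraries, 1 per group, of the uterine luminal layer and of blastocysts. The authors made SMART-seq v4 libraries, aligned paired-end reads to GRCm38/mm10 with HISAT2, counted with featureCounts (Subread 2.0.0) and deposited whole-number counts per gene with exon lengths. Their methods call the output RPKM, but the deposited values are raw counts. Annotation release, strand and multi-mapping settings are not given in the sources used here. No authors' comparison columns were used.

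The 2 tables were joined on gene identifier. CPM was computed per summed counts, RPKM also per kilobase of exon. Genes with 10 or more counts over the 2 control libraries were kept. Of these, 1842 had exons overlapping another gene's. Groups came from the sample labels. Ratios had exact 95% Clopper-Pearson intervals, which cover counting error only, as PCR reads carry no molecular identifiers. Where a library had 0 counts, 3 counts took their place to give a bound, and such genes entered list medians at their bound. edgeR 4.0.16 (R 4.3.3; TMM scaling, quasi-likelihood test, Benjamini-Hochberg adjustment) was fitted over all 6 libraries with tissue as the factor, with 4 residual degrees of freedom and a common dispersion of 0.147. DESeq2 1.42.0 was an alternative. The procedures were tested on simulated data. The lists were compared by counts and medians, without a set test.

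Named genes were the 8 largest by the bound nearest 0 and the 8 most abundant (of 500 bases or more) per side, up to 4 members of each list with the highest control RPKM, and genes of interface pairs in which at least 1 was called. *Lif*, *Lifr*, *Il6st* and *Stat3* were also named. Other names in the text were chosen after their values were seen. The members and lists were chosen with earlier results of these data known. Alternatives tried were scaling, count minimum, log2 limit, presence limit, overlapping exons, the condition term and leaving out each library. Promoters came from RefSeq (GRCm38.p6).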

Additional observations from a re-analysis of the deposited data

Results flagged for a closer look

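*Fasl*, which encodes the ligand of the death receptor Fas, moved in opposite directions in the pairs of libraries. In the control pair its log2 ratio of luminal layer over blastocyst was -4.32, in the *Lif* eKO pair 4.82 and in the rLif pair 2.91. Every pair was 1 luminal and 1 blastocyst library, and the difference between pairs itself was not tested. The counts in the blastocyst libraries were 668, 3 and 13, so the direction rested on the control blastocyst library.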

How the results depend on the processing

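The numbers of called genes depended most on the limit of the size rule. With a log2 limit of 1 there were 4414 genes higher in the luminal layer and 4401 in the blastocyst, and with 3 there were 1630 and 1250. Pairs present at 5 RPKM numbered 19 from luminal ligand to blastocyst receptor, 22 from blastocyst ligand to luminal receptor, 23 within the luminal layer and 27 within the blastocyst. At 1 CPM, without length, they were 92, 92 and, within the blastocyst, 84. The edgeR counts stayed within 1.5 times under every alternative run, with 4569 to 4917 luminal and 4233 to 4477 blastocyst calls when 1 library was left out. Scaling by DESeq2 size factors shifted every log2 ratio by 0.120 and TPM scaling by -0.439. Of the list medians, steroid receptors turned to -0.44 and the respiratory chain to -0.42 under TPM scaling, and amino acid transport to -0.55 with a minimum of 50 counts and with overlapping genes left out. Among 237 named genes TPM scaling lost 10 calls and gained 2, TMM gained 2 and DESeq2 size factors gained 4. The causes were not tested. With condition as a term, which pairs the 2 tissues of each condition, edgeR called 4526 luminal and 4381 blastocyst genes. With 1 pooled library per group, the spread between animals is unknown, and tissue cannot be told apart from how it was collected.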
